A study of Macaca mulatta with 449 samples.

Results

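HOX genes encode homeodomain transcription factors that sit in clusters A to D, and members of different clusters that descend from the same ancestral gene share a paralogue number. In the embryo the clusters are switched on in order of that number, with low numbers starting further forward in the hindbrain and high numbers starting in the spinal cord, and retinoic acid is a known inducer of the low-numbered genes. Neurons of the adult brainstem can retain part of this code, whereas the forebrain, the midbrain and the cerebellum arise in front of the HOX domain.

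The genes described here are the 38 members of the HOXA to HOXD clusters taken by symbol, under a rule that itself uses no measured value, and looked up in a gene count table of 30807 rows. A row was matched by name for 16 of the 38: HOXA4, HOXA7, HOXA9, HOXA13, HOXB1, HOXB8, HOXC6, HOXC10, HOXC11, HOXC12, HOXD4, HOXD8, HOXD9, HOXD10, HOXD11 and HOXD12. No row was matched by name for the other 22, so HOXA2, HOXA3, HOXA5, HOXA6, HOXA10, HOXA11, HOXB2, HOXB3, HOXB4, HOXB5, HOXB6, HOXB7, HOXB9, HOXB13, HOXC4, HOXC5, HOXC8, HOXC9, HOXC13, HOXD1, HOXD3 and HOXD13 were not analysed here. The matched rows include no member of paralogue groups 2, 3 or 5, which limits what can be said of the order along the clusters. The row of HOXD4 took its name from the study's supplement and the other 15 from a gene name table. Gene lengths were not used here, so levels are compared between samples of the same gene and not between genes.

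Total RNA depleted of ribosomal RNA was sequenced from the brains of 8 healthy rhesus macaques, named here by their label numbers: Rhesus 2, 3, 7 and 8 were males of 10, 10, 4 and 3.8 years, and Rhesus 4, 6, 10 and 11 were females of 3.2, 10, 5 and 9.8 years. The table holds 408 libraries, 1 from each animal for each of 51 dissected sub-regions. The hindbrain is represented by the medulla oblongata (MO), the pons (PON), the cerebellar cortex (CBC) and the cerebellar vermis (CBV), 8 libraries each, and the other 47 sub-regions, termed rostral here, include, from the midbrain, the substantia nigra (SN) and the ventral tegmental area (VTA). The labels name no nuclei within MO or PON and no level at which either was cut. Gene counts summed to between 9100013 and 15755102 in the 32 hindbrain libraries and to between 7784678 and 31083490 in all 408. A count of 3 reads, used here as the floor of detection, corresponded to 0.235 to 0.320 CPM (reads scaled to the size of the library) in MO and to 0.233 to 0.350 CPM in PON. It covers counting error only.

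The dissections were checked against defining markers. The 8 brainstem neuron markers with a row, of 11 listed, summed to 39.3 to 600 CPM in MO and to 298 to 628 CPM in PON, so their sum did not tell these sub-regions apart. Single genes of the list differed in direction: SLC17A6, a glutamate transporter, was at 269 ± 150 CPM (SD, n = 8) in MO and 434 ± 97.0 CPM in PON, and the glycine receptor subunit GLRA1 at 29.8 ± 17.2 and 24.2 ± 10.7 CPM. SLC6A5 was at 28.7 ± 31.2 CPM in MO and 1.04 ± 1.64 CPM in PON. Dopamine beta-hydroxylase (DBH) reached 6.14 ± 5.25 CPM in MO and 0.0368 ± 0.0720 CPM in PON, and the granule cell receptor subunit GABRA6 reached 930 ± 163 CPM in CBC, 987 ± 137 CPM in CBV and 0.804 ± 0.830 CPM in MO. CHAT, the enzyme that makes acetylcholine, had a mean of 2.47 ± 2.82 CPM in MO and no read in any PON library. The MO library of Rhesus 6 stood apart: 10 neuronal markers summed to 737 CPM there against 8576 to 15577 CPM in the other 7 MO libraries, and the brainstem neuron markers to 39.3 CPM against 201 to 600 CPM. In the same library the 10 oligodendrocyte markers summed to 93908 CPM against 30116 to 65402 CPM, 6 astrocyte markers to 14363 against 4466 to 10037 CPM, 6 microglial markers to 876 against 214 to 531 CPM, 10 fibroblast markers to 823 against 184 to 245 CPM, 5 smooth muscle markers to 483 against 126 to 226 CPM, and 5 choroid plexus markers to 516 against 42.2 to 323 CPM. For MO against PON, the tested members and the named list genes are therefore also given without this animal. In such bulk samples, fewer cells of a type and less RNA per cell cannot be told apart.

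Across the 51 sub-regions, HOX expression was concentrated in MO and PON. With detection defined as more than 3 counts in at least 6 of 8 animals, 5 members were detected in MO (HOXA4, HOXD4, HOXA7, HOXD8 and HOXC10) and 5 in PON (HOXA4, HOXD4, HOXC6, HOXA7 and HOXC10). HOXD4 was also detected in VTA and SN, and HOXA9 in CBC, corpus callosum (CC), dentate gyrus (DG) and olfactory bulb (OB). No other sub-region passed this rule for any member. Of all reads assigned to a gene over the 408 libraries, MO and PON together held 97.8% of the 2383 reads of HOXA4, 96.0% of the 7767 of HOXD4, 96.1% of the 228 of HOXC6, 93.7% of the 1136 of HOXC10, 99.7% of the 1103 of HOXB8, 83.9% of the 949 of HOXA7 and 74.7% of the 79 of HOXD8. HOXA9 was the exception, with 2.32% of its 1294 reads in these sub-regions.

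**Figure D1:**
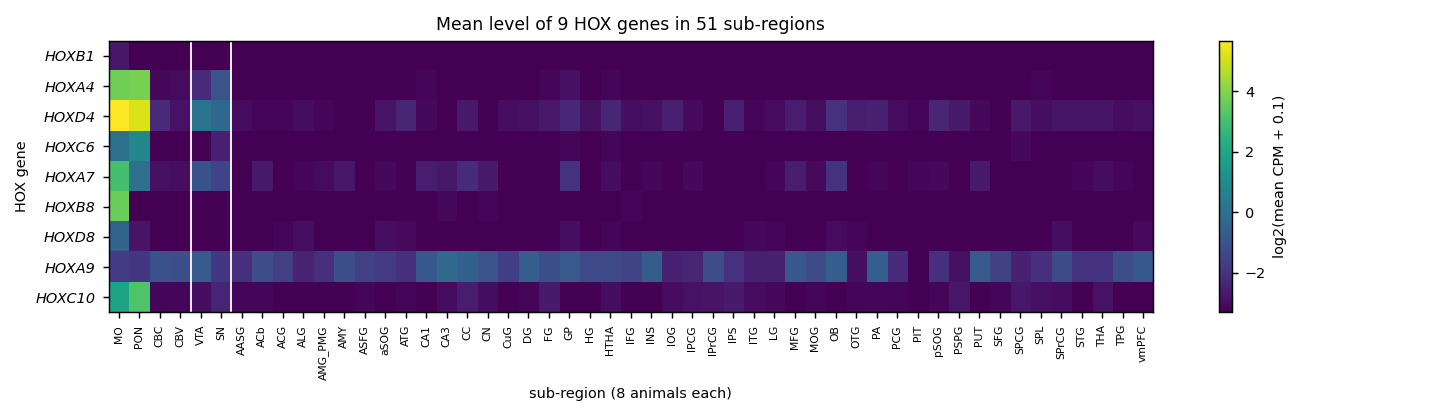
Heat map of the mean level over 8 animals, as log2 of the mean CPM plus 0.1, of the 9 HOX genes that passed 3 counts in at least 1 library (rows, by paralogue number) in 51 sub-regions (columns). White lines set off the 4 hindbrain sub-regions and then VTA and SN; the brightest cells lie in MO and PON for HOXA4, HOXD4, HOXC6, HOXA7 and HOXC10 and in MO for HOXB8 and HOXD8, with fainter HOXD4, HOXA4 and HOXA7 in VTA and SN, while the HOXA9 row is faint throughout.

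MO and PON, the sub-regions in which HOX genes were detected most, were compared within animals. HOXD4 and HOXA4, of paralogue group 4, were read in every library of both, and HOXB8 was read in MO and not in PON. HOXC10 was higher in PON in every animal, and HOXA7 and HOXD8 were higher in MO in every animal. For HOXD8 the counts of Rhesus 3 and Rhesus 10 did not pass the floor of 3 in either sub-region. Cell type markers also differed between these sub-regions: 4 of 10 tested neuronal markers were called lower in MO and 0 higher, while 3 of 6 astrocyte, 3 of 6 microglial and 4 of 4 choroid plexus markers were called higher and 0 of 10 oligodendrocyte markers were called. Without Rhesus 6 these counts were 4 neuronal, 2 astrocyte, 3 microglial, 4 choroid plexus and 0 oligodendrocyte markers. Over all genes tested in the 8 animals, 4.96% were called higher and 3.71% lower. Cerebellar neuron markers were called in both directions, 2 higher and 3 lower of 8 tested, as were cortex markers, 1 and 1 of 4. Of fibroblast markers 1 of 10, of ependymal markers 1 of 5 and of brainstem neuron markers 1 of 3 tested (SLC6A5) were called higher. The part of cell type markers in the HOX differences was not tested.

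HOXD4 (ENSMMUG00000047606), whose forward boundary lies in the posterior hindbrain of the embryo and which carries a retinoic acid response element, measured 61.6, 63.2, 59.3, 34.1, 47.5, 45.6, 44.1 and 54.2 CPM in the MO of Rhesus 2, 3, 4, 6, 7, 8, 10 and 11. In PON the same animals gave 40.6, 34, 44.2, 27.7, 35.9, 36.6, 26 and 40.8 CPM. MO was the higher of the pair in 8 of 8 animals, by 1.23-fold to 1.86-fold, although the ranges of the groups overlapped. The means were 51.2 ± 10.1 CPM in MO and 35.7 ± 6.38 CPM in PON (SD, n = 8). In the edgeR quasi-likelihood test with the animal as a block, the log2 fold change of HOXD4 was 0.50 (SE 0.10) with a Benjamini-Hochberg adjusted p of 0.00545, which passes the 5% false discovery rate but not the 2-fold change that a call required here. Without Rhesus 6 the log2 fold change was 0.53.

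HOXA4 (ENSMMUG00000040874), the A-cluster gene of the same paralogue group, measured 14.1, 12, 19.7, 7.69, 10.8, 13.2, 13.6 and 13.6 CPM in MO in the same order of animals. In PON it measured 16.7, 12.7, 14.6, 15.1, 13.5, 14.3, 11.6 and 15.4 CPM. The groups overlapped, and MO was higher in 2 of 8 animals, Rhesus 4 and Rhesus 10. The means of 13.1 ± 3.40 and 14.2 ± 1.60 CPM differed by less than the spread between animals (log2 fold change -0.17, SE 0.15, edgeR adjusted p = 0.437). The lowest MO value, 7.69 CPM, came from the neuron-poor library of Rhesus 6, without which the log2 fold change was -0.05.

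HOXA7 (ENSMMUG00000013458), a gene of trunk-level identity in the embryo, was called higher in MO. Its MO values were 9.49, 8.43, 21, 8.5, 2.84, 3.05, 2.12 and 8.60 CPM in Rhesus 2, 3, 4, 6, 7, 8, 10 and 11. Its PON values were 1.15, 0.478, 1.28, 1.24, 0.890, 0.550, 1.13 and 0.674 CPM. The groups did not overlap, and within an animal MO exceeded PON by 1.87-fold in Rhesus 10 and by up to 17.7-fold in Rhesus 3. The fitted difference was 7.26-fold (log2 fold change 2.86, SE 0.34). It lay between 2.67 and 3.12 on the log2 scale when each animal in turn was left out, with 2.90 without Rhesus 6. HOXA7 passed the filter on low counts in 8 MO and 4 PON libraries, so MO alone let it in. The call and the lack of overlap are therefore no support, and no p-value is given. Unlike HOXA4 and HOXD4, HOXA7 was not lowest in the library of Rhesus 6.

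HOXC10 (ENSMMUG00000000925), which in the embryo patterns motor neurons of the lumbar spinal cord, had the opposite direction and was higher in PON. It measured 3.41, 1.79, 5.45, 1.3, 4.73, 3.66, 2.75 and 5.92 CPM in MO. In PON it measured 9.88, 6.02, 8.05, 11.3, 9.57, 9.13, 6.60 and 11.9 CPM. PON was higher in 8 of 8 animals, by 1.48-fold in Rhesus 4 and by up to 8.76-fold in Rhesus 6, and the groups did not overlap, although the highest MO value, 5.92 CPM, lay just under the lowest PON value, 6.02 CPM. The log2 fold change of MO over PON was -1.42 (SE 0.25, edgeR adjusted p = 0.00233), and it was -1.20 (adjusted p = 0.000356) without Rhesus 6. The summed level of the 10 neuronal markers, 4 of them called lower in MO, was 13323 to 27827 CPM in PON and 737 to 15577 CPM in MO, and these ranges overlapped. Within each animal, however, the neuronal sum was higher in PON, most narrowly in Rhesus 10, at 13323 against 12101 CPM. Whether it bears on HOXC10 was not tested.

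HOXC6 (ENSMMUG00000046055), which specifies motor neurons of the limb-level spinal cord, measured 1.15, 0.955, 2.22, 2.64, 2.00, 1.98, 1.13 and 1.77 CPM in PON. In MO its read counts were 21, 2, 17, 0, 8, 1, 2 and 27 in Rhesus 2, 3, 4, 6, 7, 8, 10 and 11, so that 4 of 8 libraries exceeded the floor of 3 counts. The MO values, 0.896 ± 0.947 CPM, overlapped the PON values, 1.73 ± 0.597 CPM, and MO was higher in Rhesus 2 and Rhesus 11. The difference missed the threshold with edgeR (log2 fold change -1.34, SE 0.61, adjusted p = 0.12) and passed it with DESeq2 (-1.72). HOXC6 passed the filter on low counts in 3 MO and 8 PON libraries, so PON alone let it in and the DESeq2 call is no support. Without Rhesus 6 the edgeR value was -0.93.

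**Figure D2:**
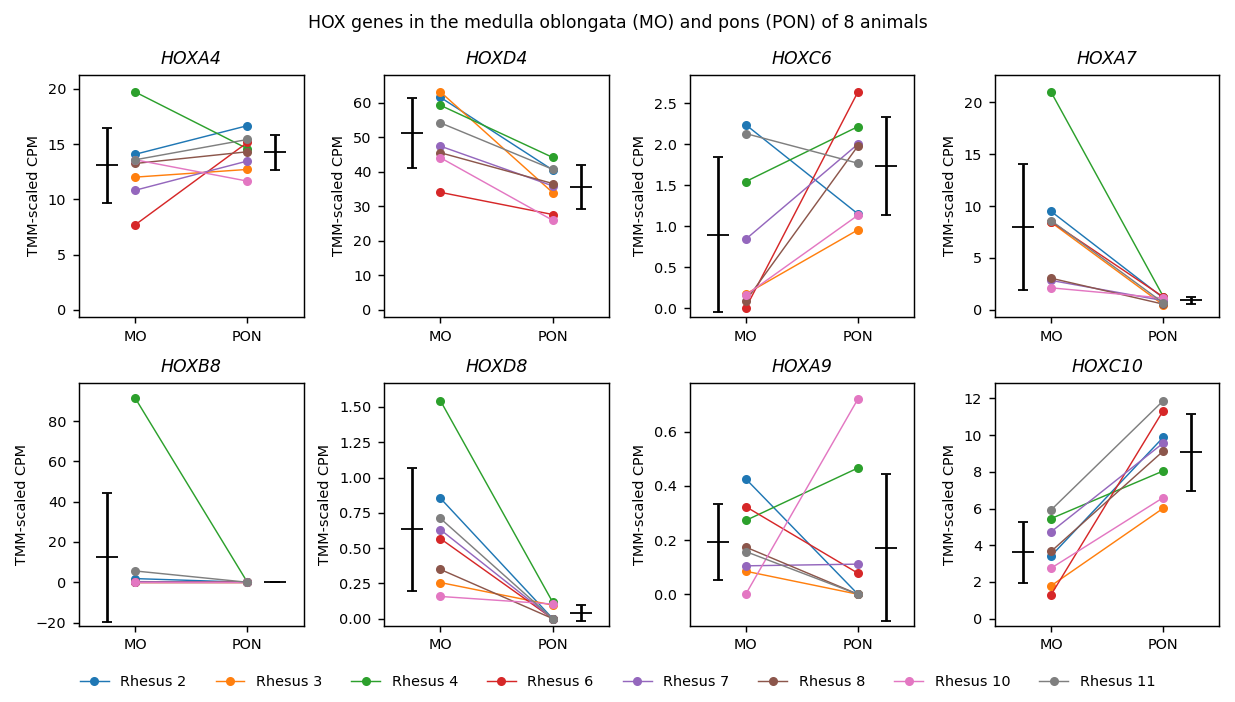
Level of 8 HOX genes in MO and PON, in TMM-scaled CPM on linear axes that differ between panels; lines join the libraries of an animal, and bars give the mean ± SD over 8 animals. HOXA7 and HOXD8 lie higher in MO and HOXC10 higher in PON in all 8 animals, HOXA4 lines cross, and HOXB8 rests on the MO library of Rhesus 4. The HOXD8 counts of Rhesus 3 and Rhesus 10 do not pass the floor of 3 in either sub-region.

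Of the 16 matched members, 5 passed the filter on low counts in MO against PON. Among them 1 was called higher in MO (HOXA7) and 1 lower (HOXC10), where a call required a false discovery rate under 5% and a change of more than 2-fold. HOXA4, HOXC10 and HOXD4 passed the filter in 8 libraries of each sub-region. HOXA7 passed it through MO alone and HOXC6 through PON alone, so the count of calls is no support. Of all 14509 genes tested, 4.96% were called higher and 3.71% lower, and the median log2 fold change of the 5 members was -0.17 against 0.02 for all genes. Relative to HOXA4 in the same library, which needs neither library totals nor scaling, HOXC10 had 14.9 to 43.7 reads per 100 HOXA4 reads in MO and 47.4 to 77.0 in PON, and HOXA7 had 15.6 to 111 in MO and 3.76 to 9.73 in PON. These ratios, chosen after the values were seen and given without a test, did not overlap between the sub-regions for either gene. For HOXC6 they did, at 0 to 15.9 in MO and 6.90 to 17.4 in PON. For HOXD4 they nearly separated, at 301 to 526 in MO and 183 to 303 in PON.

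No steady order of the difference along the paralogue numbers was seen. Over the 9 members with more than 3 counts in some MO or PON library, Spearman's rho between paralogue number and the mean log2 ratio of MO over PON (0.5 CPM added to each) was -0.10, and it ranged from -0.66 in Rhesus 10 to 0.21 in Rhesus 2 over the 8 animals. With 0.1 CPM added in place of 0.5 its sign changed, to 0.13, and without Rhesus 4 or without Rhesus 10 it was 0.017. These values describe 9 genes that share clusters and libraries, and carry no test. Group 7 and 8 members (HOXA7, HOXB8 and HOXD8) had mean log2 ratios of 2.30, 1.81 and 0.99, with HOXB8 at 0.99 without Rhesus 4, whereas the group 10 member HOXC10 was at -1.3 and the group 6 member HOXC6 at -0.94. HOXC6 and HOXC10 are both C-cluster genes, and the other matched members of that cluster, HOXC11 and HOXC12, were at the floor.

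**Figure D3:**
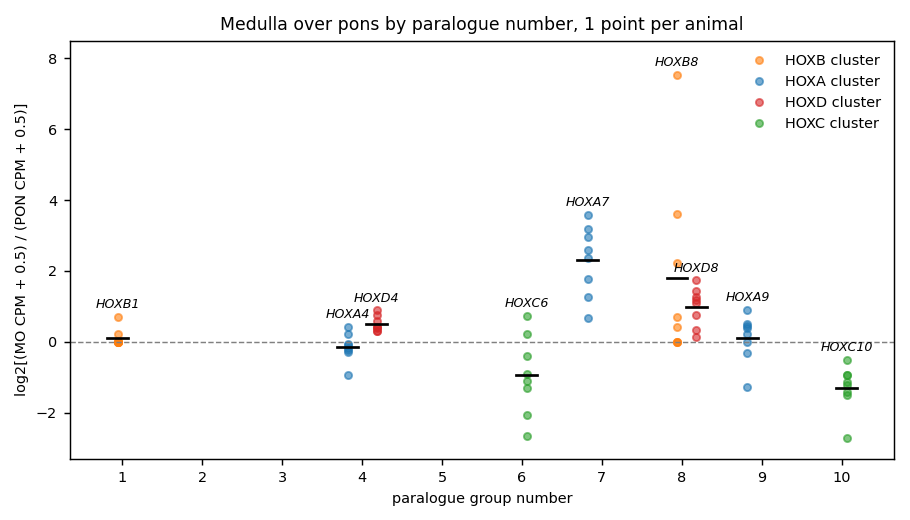
Log2 ratio of MO over PON, with 0.5 CPM added to each, against paralogue group number for 9 HOX genes; each point is an animal, colours mark the cluster and black bars the mean over 8 animals. HOXA7, HOXB8 and HOXD8 lie above 0 on average, HOXC6 and HOXC10 below, and there is no steady slope with paralogue number.

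HOXB8 and HOXD8, both of paralogue group 8, were read in MO and all but absent from PON. HOXB8 (ENSMMUG00000020868), whose loss causes excessive grooming in mice, had MO counts of 17, 0, 1007, 2, 3, 0, 0 and 71 in Rhesus 2, 3, 4, 6, 7, 8, 10 and 11, and no read in PON, CBC or CBV. Rhesus 4 alone held 91.5% of the HOXB8 reads of MO, at 91.5 CPM, with 5.60 CPM in Rhesus 11 and 1.81 CPM in Rhesus 2 and no library above the floor among the other 5. Set against a floor of 3 counts per PON library, the MO mean was at least 40.7-fold higher, or at least 3.78-fold without Rhesus 4. HOXB8 did not pass the filter in this comparison, and no test of it is given, since a looser filter would admit it through MO alone.

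HOXD8 (ENSMMUG00000023504) had MO counts of 8, 3, 17, 7, 6, 4, 2 and 9 and PON counts of 0, 1, 1, 0, 0, 0, 1 and 0 in the same order. MO was higher in 8 of 8 animals and the groups did not overlap. In Rhesus 3 and Rhesus 10, however, both counts were at or under the floor, 3 against 1 and 2 against 1. The direction in these animals and the lack of overlap therefore rest on very few reads. Against the floor in PON the MO mean of 0.633 ± 0.437 CPM was at least 2.08-fold higher. It did not pass the filter either.

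The MO libraries with most HOXB8 were also high for HOXD8 and HOXC6. The 3 libraries with more than 3 HOXB8 reads, Rhesus 4, 11 and 2, had the highest HOXD8 counts, 17, 9 and 8, and the highest HOXC6 counts, 17, 27 and 21. HOXA7 was highest in Rhesus 4 at 231 counts, and Rhesus 7, 8 and 10 had the lowest HOXA7 counts, 27, 35 and 27. HOXD4 spanned less, from 34.1 to 63.2 CPM in MO. In Rhesus 2, 4 and 11 the neuronal markers summed to 15577, 8576 and 10986 CPM and the oligodendrocyte markers to 46667, 65402 and 48832 CPM. The neuronal sum of Rhesus 2 was the highest in MO, and the other values lie among those of the other libraries. The cortex markers, 6 of 7 with a row, were highest in these same libraries, at 166, 261 and 167 CPM against 29.8 to 147 CPM in the other 5. These markers are not limited to cortex, since they summed to 485 to 681 CPM in PON and to 338 to 781 CPM in CBC. The microglial markers, 6 of 9 with a row, summed to 259, 432 and 531 CPM in them, to 214 to 302 CPM in Rhesus 3, 7, 8 and 10 and to 876 CPM in Rhesus 6. Whether these markers bear on the HOX counts was not tested.

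**Figure D4:**
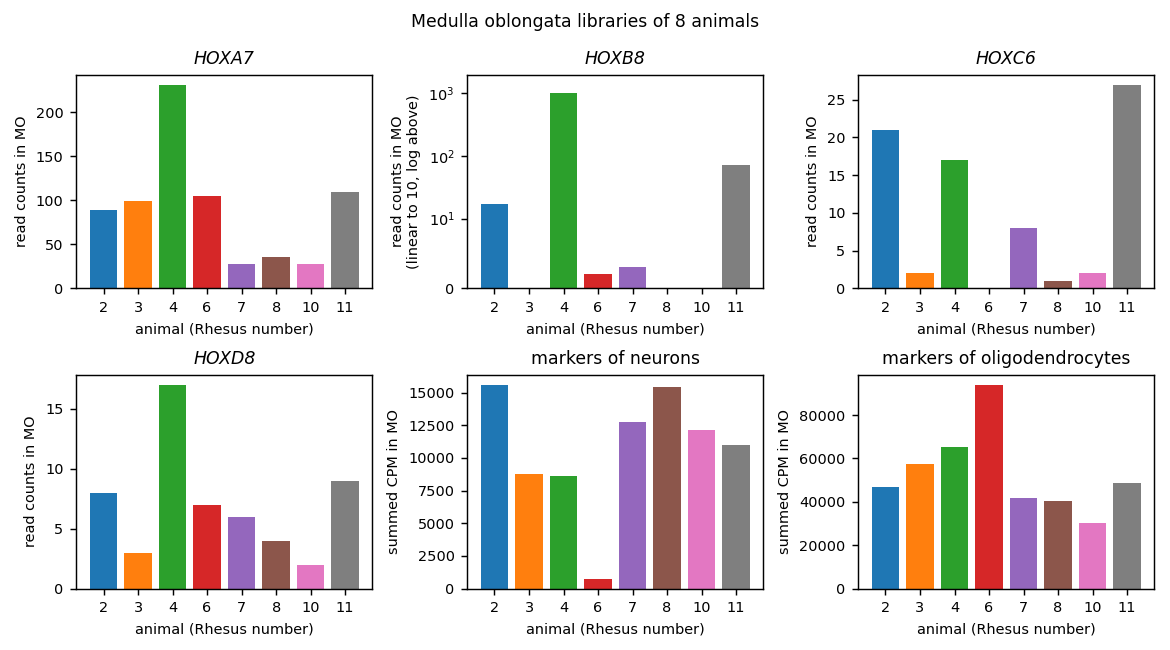
Read counts of HOXA7, HOXB8, HOXC6 and HOXD8, and summed CPM of 10 neuronal and 10 oligodendrocyte markers, in the MO library of each of 8 animals; the HOXB8 axis is linear to 10 and logarithmic above. HOXB8 reaches 1007 counts in Rhesus 4, and neuronal markers fall to 737 CPM in Rhesus 6.

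In the cerebellum the HOX genes of MO and PON were at or near 0. HOXC6, HOXB8 and HOXD8 had no read in CBC or CBV. HOXA4 had 4 reads in all 16 cerebellar libraries, HOXA7 had 6, HOXC10 had 2 and HOXD4 had 14, and no cerebellar library passed 3 counts for any of them. Against the cerebellar libraries of the same animals, summed per animal, 4 of 4 members that passed the filter were called higher in MO (HOXA4, HOXA7, HOXC10 and HOXD4), where 18.1% of all genes were called higher, and 4 of 4 were called higher in PON (HOXA4, HOXC6, HOXC10 and HOXD4), where 16.6% were. Each of these passed the filter in the 8 MO or PON samples and in 0 cerebellar samples, so that the filter fixed the direction and the counts are no support. Set against a floor of 3 counts per animal, HOXA4 was at least 108-fold higher in MO and at least 117-fold in PON, HOXC10 at least 29.9-fold and 74.6-fold, HOXA7 at least 65.9-fold in MO and 7.62-fold in PON, and HOXC6 at least 14.3-fold in PON. HOXD4, with up to 4 reads per animal in the cerebellum, passed the floor in 1 of 8 animals there. Its fitted fold, which rests on those few reads, was 630 in MO (log2 fold change 9.30, SE 0.35) and 454 in PON (8.83, SE 0.25). The filter fixed its direction too, so no p-value is given.

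Between vermis and cerebellar cortex, no member passed the filter, so none was tested there by edgeR or DESeq2, and 0.225% of all genes were called in either direction. Between the cerebellum and the rostral sub-regions, 2 members passed the filter and 0 were called by edgeR, 0 at an unadjusted p under 0.05 and 0 by DESeq2, where 28.7% of all genes were called. HOXD4 had a log2 fold change of 0.01 (SE 0.47) and HOXA9 of 0.48 (SE 0.28) in that comparison.

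Against the rostral sub-regions, summed per animal over all 47, 5 of the 6 members that passed the filter were called higher in MO, where 9.48% of all genes were. These were HOXA4, HOXD4, HOXA7, HOXD8 and HOXC10, each higher in 8 of 8 animals with groups that did not overlap. The log2 fold changes were 10.18 (SE 0.44) for HOXA4, 9.57 (SE 0.29) for HOXD4, 7.75 (SE 0.51) for HOXC10, 7.58 (SE 0.39) for HOXA7 and 7.17 (SE 0.79) for HOXD8. No p-value is given for these genes, since MO alone let each of them past the filter. In PON 5 of 6 were called higher as well, where 7.34% of all genes were. HOXC6 took the place of HOXD8, at 9.56 (SE 0.53), beside HOXA4 at 10.27 (SE 0.30), HOXC10 at 9.12 (SE 0.28), HOXD4 at 9.02 (SE 0.20) and HOXA7 at 4.74 (SE 0.35). HOXA4, HOXC6, HOXC10 and HOXD8 passed the filter through MO or PON alone, so the filter fixed their direction, and their lack of overlap is no support. HOXA7 passed it in 2 and HOXD4 in 6 of the 8 rostral sums, so these genes too were let in by MO or PON. Their lack of overlap and the counts of calls are no support either. These fold changes rest on 376 rostral libraries that held 49 reads of HOXA4, 299 of HOXD4, 147 of HOXA7, 70 of HOXC10, 20 of HOXD8 and 9 of HOXC6 in total.

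VTA and SN of the midbrain held 42 of the 49 rostral reads of HOXA4, 140 of the 299 of HOXD4 and 54 of the 147 of HOXA7, but 9 of the 70 of HOXC10 and 0 of the 20 of HOXD8. HOXD4 had 6, 1, 0, 16, 26, 7, 4 and 21 reads in the VTA of Rhesus 2, 3, 4, 6, 7, 8, 10 and 11, and 8, 4, 22, 11, 6, 1, 3 and 4 in the SN of the same animals. It passed 3 counts in 12 of these 16 libraries, against 7 of 360 forebrain libraries. Forebrain here means the other 45 rostral sub-regions, among them the pituitary. HOXA7 passed 3 counts in 6 of the 16 and in 3 of 360, and HOXA4 in 5 of the 16 and in 0 of 360. Summed over VTA and SN and set against the 45 forebrain sub-regions, 2 of 3 members that passed the filter were called, where 22.9% of all genes were called in either direction. HOXD4 was 20.6-fold higher (log2 fold change 4.37, SE 0.42). HOXA7 had a fitted fold of 13.8 (log2 fold change 3.78, SE 0.51), and both genes were higher in 8 of 8 animals. HOXA7 passed the filter in 0 and HOXD4 in 3 of the 8 forebrain sums. VTA and SN alone thus let both genes past the filter, which fixed the direction of HOXA7. The calls and the 8 of 8 animals are therefore no support for either gene, and no p-value is given. The level stayed far under that of the pons: HOXD4 averaged 0.984 ± 0.918 CPM in VTA and 0.708 ± 0.730 CPM in SN, beside 35.7 CPM in PON. The SN library of Rhesus 4 held the most members, with 22 reads of HOXD4, 15 of HOXA4, 6 of HOXA7, 5 of HOXC6 and 5 of HOXC10, and no other library outside MO and PON passed 3 counts for HOXC6 or HOXC10.

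**Figure D5:**
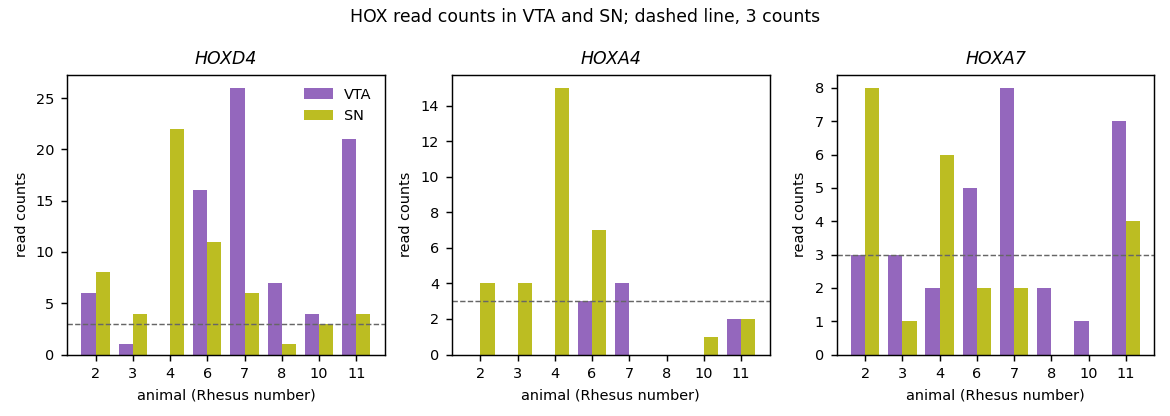
Read counts of HOXD4, HOXA4 and HOXA7 in the VTA and SN libraries of 8 animals; the dashed line marks the floor of 3 counts. HOXD4 reaches 26 reads in the VTA of Rhesus 7 and 22 in the SN of Rhesus 4, whereas most HOXA4 bars lie at or under 4.

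HOXA9 (ENSMMUG00000013459), a group 9 gene best known from blood cell progenitors, was read at a low level in most of the brain and was not raised in the hindbrain. At least 1 of 8 libraries passed 3 counts in 43 of 51 sub-regions, 129 libraries in all, and the highest single count was 26, in the insula. Its highest means were 0.737 ± 0.492 CPM in hippocampal CA3, 0.6 ± 0.334 CPM in CC and 0.546 ± 0.561 CPM in the entorhinal and perirhinal cortex, and these do not differ beyond their spread. The pituitary (PIT) had no HOXA9 read. In MO it measured 0.427, 0.0852, 0.273, 0.324, 0.105, 0.174, 0 and 0.158 CPM, and in PON 7 reads in Rhesus 10 and 4 in Rhesus 4 were the only counts above the floor. Neither MO (log2 fold change -0.53, SE 0.41, edgeR adjusted p = 0.308) nor PON (-0.76, SE 0.64, adjusted p = 0.326) differed from the rostral sub-regions beyond the spread between animals.

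HOXB1 and 7 further matched members were at or near the floor. HOXB1 (ENSMMUG00000022212), which patterns the fourth rhombomere of the embryo, had 5 reads in all, of which 4 were in the MO of Rhesus 10. HOXD9 had 7 reads in 408 libraries, HOXC12 and HOXD10 had 3 each, HOXA13 and HOXD11 had 2 each, HOXC11 had 1 and HOXD12 had none, and no library held more than 3 reads of any of these 7. Reads at this level cannot show whether the genes are transcribed.

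Levels in MO and PON were compared between the 4 mid-aged animals (9.8 or 10 years) and the 4 young ones (up to 5 years), with sex as a covariate, and between females and males, with age class as a covariate, at a false discovery rate of 10% and a change of more than 2-fold. The members tested were HOXA4, HOXA7, HOXC10 and HOXD4 in MO and these and HOXC6 in PON. None of them was called by edgeR or DESeq2 in any of the 4 comparisons, and 0 had an unadjusted p under 0.05. HOXB8, HOXC6 and HOXD8 in MO were not tested, and of the HOXB8 reads of MO 1080 were in females, 1007 of them in Rhesus 4, and 20 in males. Of all genes, edgeR called 0.00674% for age in MO (DESeq2 called 207 genes) and 0% for age in PON (399 genes at an unadjusted p under 0.05, and 8 called by DESeq2), 0.0943% for sex in MO and 0.106% for sex in PON. The largest difference among the tested members was that of HOXA7 in MO, with a log2 fold change of female over male of 0.89 (SE 0.68), and it ranged from -0.24 to 1.16 when each animal in turn was left out. The difference turned negative without Rhesus 4, whose library held 231 of its 722 reads. HOXD4 had log2 fold changes of 0.08 (SE 0.23) for age and -0.20 (SE 0.23) for sex in MO.

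Genes that act with or on HOX proteins were read in the same comparison of MO with PON, from lists chosen by function, with a median log2 fold change of 0.02 over all genes tested as the reference. For the counts of calls below, the reference is the share over all genes tested, 4.96% higher in MO and 3.71% lower. HOX proteins bind DNA with TALE homeodomain partners of the PBX, MEIS and PKNOX families. Of the 10 listed, 9 were tested, 1 was called higher and 0 lower, with a median of 0.21. The call was MEIS2, at 86.8 ± 35.7 CPM in MO and 32.9 ± 5.77 CPM in PON (log2 fold change 1.29, SE 0.21, edgeR adjusted p = 0.00161), and the log2 fold change was 1.37 without Rhesus 6.

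Of 18 genes for retinoic acid synthesis, breakdown and reception, 15 were tested, 4 were called higher in MO and 3 lower, with a median of 0.47. CYP26B1, which degrades retinoic acid, was 7.61-fold lower in MO, at 8.71 ± 3.89 against 62.4 ± 13.9 CPM (log2 fold change -2.93, SE 0.20, edgeR adjusted p = 1.01e-05). CRABP1, a cytoplasmic retinoic acid binding protein, was 7.25-fold higher in MO, at 8.68 ± 4.70 against 1.20 ± 0.754 CPM (2.86, SE 0.17, adjusted p = 3.79e-06). The receptor RARB was 3.44-fold higher, at 5.35 ± 1.43 against 1.57 ± 0.619 CPM (1.78, SE 0.24, adjusted p = 0.00059). The ranges of MO and PON did not overlap for any of these 3 genes. Without Rhesus 6 their log2 fold changes were -2.96, 2.80 and 1.74, and 3 genes of the list were called higher and 3 lower.

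Of 12 regulators upstream of HOX in the embryonic hindbrain, 3 were tested and 1 was called, lower in MO, with a median of -0.30. It was ZIC1, a zinc finger factor that also marks cerebellar and precerebellar neurons, at 36.3 ± 19 CPM in MO and 170 ± 35.2 CPM in PON (log2 fold change -2.40, SE 0.22, edgeR adjusted p = 6.98e-05). Of 22 other homeobox genes of brainstem neurons, 9 had a row, 3 were tested and 2 were called, both lower in MO: OTX2, a forebrain and midbrain factor (-1.74, SE 0.54, edgeR adjusted p = 0.0341), and UNCX (-1.56, SE 0.49, edgeR adjusted p = 0.0364). For both, the ranges of MO and PON overlapped. Without Rhesus 6 the log2 fold changes were -2.35 for ZIC1, -1.93 for OTX2 and -1.26 for UNCX, all still called.

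Polycomb and trithorax proteins hold HOX clusters silent or active. Of 24 listed, 23 were tested and 0 were called by edgeR or by DESeq2, 4 had an unadjusted p under 0.05, and the median was 0.01. Of 29 genes that neighbour the HOX clusters, 9 had a row, 7 were tested, 0 were called by edgeR or by DESeq2, and 2 had an unadjusted p under 0.05, SKAP2 at 0.81 and CBX5 at 0.60 on the log2 scale, both named after their values were seen. None of the antisense RNAs of the clusters in that list had a row matched by name, so they were not analysed here. The library kit kept strand but the strand setting of the counting is not given in the sources used here, so reads of antisense transcripts over a HOX gene cannot be told apart from its own.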

How the data were processed

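The authors sequenced rRNA-depleted RNA with a directional kit, trimmed samples of poor read quality with Trim Galore 0.4.4, aligned reads with HISAT2 2.0.5 to the macaque assembly Mmul_8.0.1 and counted reads per gene with HTSeq 0.6.1. The deposited values are raw read counts per gene. No libraries agreed within sampling noise. CPM were scaled by TMM (edgeR 4.0.16, R 4.3.3). Genes were filtered with filterByExpr and tested by the edgeR quasi-likelihood test with the animal as a block, after counts were summed per animal where several sub-regions formed a group, and, for age and sex, with the other as covariate. P-values were adjusted over all genes tested. The same number in the labels is the same animal. Deviations of same-numbered samples correlated at -0.00834 to 0.572 in MO against PON and at 0.2 or more in each other region comparison. A call required a false discovery rate under 0.05 (0.1 for age and sex) and more than 2-fold change. The members, gene lists and marker lists were chosen with earlier results of these data known. Values were given for all members above the floor of 3 counts in some library, more than the rule asked (the highest member of each paralogue group with a mean of 1 CPM or more, and the called members), and from each list for up to 3 called genes with the largest change in MO against PON. Alternatives were DESeq2 1.42.0, its size factors, the study's filter, no block or covariate, a stricter fold, another pseudocount and each animal left out. The fits were tested on simulated data. Chromatin accessibility samples and 1 sub-region of the labels were not analysed here.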

Additional observations from a re-analysis of the deposited data

Results flagged for a closer look

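In each of the 15 sets of 8 libraries examined (members with more than 3 counts in some library of MO or of PON), the highest or lowest value was set against its nearest neighbour as a share of the range. This share was compared with Dixon's critical value, which chance passes in about 1 in 20 sets of normally distributed values. Low counts with zeros are not so distributed, and that rate need not hold here. In 3 sets the critical value was passed, each by an MO library. HOXB8 reached 91.5 CPM in Rhesus 4, with the next value at 5.60 CPM (ratio 0.939). HOXA7 reached 21 CPM in the same library, with the next at 9.49 CPM (ratio 0.609). HOXB1 reached 0.314 CPM in Rhesus 10, with the next at 0.0789 CPM (ratio 0.749), and this value rests on 4 reads.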

How the results depend on the processing

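Of 651 alternative values for single HOX genes, 649 stayed on the same side of the threshold, with no called value changing direction. HOXC6 in MO against PON became a call with DESeq2 (-1.72), and HOXC10 (-1.42) was no longer called when a log2 fold change above 2 was required. In MO against PON, 2 members were called, 4 with the study's filter and 1 with the stricter fold. In MO against CB, 4 members were called and 7 with the study's filter, which let HOXB8, HOXC6 and HOXD8 be tested. HOXB8 and HOXD8 enter both counts through MO alone, as HOXC6 does the second, and support nothing. The study's filter without Rhesus 4, chosen after seeing the data, gave 4 and 7. The rank correlation with paralogue number, -0.10, changed sign to 0.13 with a pseudocount of 0.1 CPM, and leaving out each animal, added after seeing the data, gave -0.10 to 0.017, positive without Rhesus 4 and without Rhesus 10. The cause was not tested.

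Leaving out each animal in turn gave 2 to 2 calls in MO against PON, 4 to 4 in MO and in PON against CB, 5 to 6 in MO (HOXC6 added without Rhesus 6) and 5 to 5 in PON against the rostral sub-regions, 2 to 3 in VTA and SN against forebrain (HOXA4 added without Rhesus 8), and 0 to 0 elsewhere. Without the animal as a replicate block the counts were 2, 4, 4, 0, 5, 5, 0 and 2 over the 8 region comparisons, so the pairing changed no number of member calls. Over all genes, DESeq2 called 207 genes against 1 for age in MO, 8 against 0 for age in PON and 64 against 14 for sex in MO, no block gave 10 against 32 between vermis and cerebellar cortex, and the stricter fold gave 268 against 1258 in MO against PON.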

Other observations

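An assembled transcript to which the study's supplement gives the name HOXD1 lay on chromosome 12, from 63211857 to 63214054 of Mmul_8.0.1 on the plus strand. It spanned 2198 bases of the genome, with 2 exons of 776 and 1069 bases. The same assembled locus held 2 transcripts on the minus strand, which lay before it with 124 bases between. No expression value of these transcripts was used here.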
